A study of Homo sapiens with 4 samples.

Results

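The genes described here are 7 homeobox genes, DLX1, DLX2, DLX3, IRX3, IRX4, MEIS2 and PKNOX2, each read by 1 named probe. The array held 47289 probes once control rows were left out. Only 2985 of these had a name here, so further probes of the 7 genes would go unseen. The 7 probes were found as those that the study's gene list pairs with these symbols, and 6 of the 7 accessions in that list were found in the RefSeq table under the same symbol. The cells were NCCIT, an established human embryonal carcinoma line that grows undifferentiated in culture and can be made to differentiate. By the labels, all groups were seeded at 70000 cells per square centimetre, exposed to the same transfection reagent and harvested at day 2.5, and the study's methods give another density and other times. Mock cells received the reagent alone, and the OCT4, NANOG and SOX2 knock-down cells received esiRNA, a pool of short interfering RNAs cut from a long double strand, against the respective message. Each of the 4 groups had 3 arrays, given by the labels as biological replicates. A mock transfection without any interfering RNA limits the control, since it does not carry an unrelated RNA.

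Distal-less (DLX) genes encode homeodomain transcription factors known for patterning the ventral forebrain, branchial arches, limbs and ectodermal appendages. Iroquois (IRX) genes and the MEIS and PKNOX genes belong to the TALE class, whose homeodomain carries an extended loop. MEIS and PKNOX proteins are known as partners of PBX and HOX proteins at DNA, and Iroquois proteins for subdividing the neural plate and the heart.

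DLX1 and DLX2 are neighbours on chromosome 2 in the RefSeq gene table, and both were higher after OCT4 or SOX2 silencing, so the 250 bases before their start sites are shown, from RefSeq on GRCh38.p14, 5′ to 3′ on the gene's strand. Promoters were held for 4 of the 7 genes. Capitals mark matches, on either strand, to the letters searched, which were the octamer ATGCAAAT, the SOX core ACAATG, the homeodomain letters TAATTA and the TALE letters TGACAG. The first lies at chr2:172085257-172085506 on the plus strand and the second at chr2:172102901-172103150 on the minus strand.
DLX1: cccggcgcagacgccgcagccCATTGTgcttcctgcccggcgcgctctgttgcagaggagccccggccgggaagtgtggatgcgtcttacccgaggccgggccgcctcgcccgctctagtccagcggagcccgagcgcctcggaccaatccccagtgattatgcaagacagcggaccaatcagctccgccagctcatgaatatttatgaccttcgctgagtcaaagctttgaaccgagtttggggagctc
DLX2: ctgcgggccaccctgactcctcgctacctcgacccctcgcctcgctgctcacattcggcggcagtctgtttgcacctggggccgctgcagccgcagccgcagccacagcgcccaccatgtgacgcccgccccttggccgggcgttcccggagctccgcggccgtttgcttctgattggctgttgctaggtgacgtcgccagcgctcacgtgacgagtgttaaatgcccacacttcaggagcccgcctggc
The DLX1 stretch held 1 match to the SOX core and 0 to the other letters, and the DLX2 stretch held 0 matches to any of them. Of 35116 RefSeq promoter stretches of the same length, 1.63% held the octamer, 9.29% the SOX core, 4.35% TAATTA and 13% TGACAG. A match is a description of letters and not a binding site.

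The silenced genes were read first. The POU5F1 probe, which reads OCT4 message, gave raw signals of 610.5, 546 and 536.2 in mock and 151.5, 133 and 118.5 in the OCT4 knock-down, where it was detected on 1 of 3 arrays. A probe counts as detected where the file's detection score, which runs from 0 to 1 and ranks its signal against negative control beads, is at least 0.99. The POU5F1 probe was called lower in the OCT4 knock-down (adjusted p = 1.44e-10), and no size is given since most of its arrays there were below detection. In the SOX2 knock-down it gave 127, 118 and 118.7, was detected on 0 of 3 arrays and was at least 15.0-fold lower than mock (adjusted p = 1.04e-10). That bound holds for the main settings, and over the alternatives the log2 difference of this probe was as small as -2.55. In the NANOG knock-down its signals were 533.3, 492 and 497.9, and the change was not called (log2 difference -0.42, adjusted p = 0.0774). The NANOG probe gave 342.6, 380.7 and 314.2 in mock and 184.2, 165.6 and 162.1 in the NANOG knock-down, still detected on 3 of 3 arrays, and fell by 1.85 on the log2 scale (adjusted p = 2.64e-07), or by 1.22 without background correction. It was not detected on any of the 3 OCT4 knock-down arrays or the 3 SOX2 knock-down arrays, and was at least 9.18-fold and at least 8.39-fold lower there. Both bounds hold for the main settings, and over the alternatives these log2 differences were as small as -1.86 and -1.91. SOX2 message was not analysed here, so the SOX2 label has no such reading in this text. The study reports that message as below detection on its arrays and followed it by real-time PCR, which was not used here.

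The arrays of the groups differed in brightness. Probes detected numbered 11494 ± 266 (SD, n = 3) in mock, 12744 ± 124.5 in the OCT4 knock-down, 11940 ± 314 in the NANOG knock-down and 12008 ± 152 in the SOX2 knock-down. The median raw signal was 97.5 to 104.7 in mock and 115.9 to 124.2 in the OCT4 knock-down. The part of this difference in the detection of dim probes was not tested. Normalisation between arrays sets the signal distributions equal, so folds below come from normalised log2 values and not from the raw signals.

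Of the 7 genes, 2 were detected on all 3 mock arrays, 7 in the OCT4 knock-down, 7 in the SOX2 knock-down and 4 in the NANOG knock-down. Over the whole array, 22.3% of probes were detected on all 3 mock arrays, 25.1% in the OCT4, 23.2% in the NANOG and 23.5% in the SOX2 knock-down. The study had listed all 7 as higher after OCT4 and SOX2 silencing on these same arrays, so nothing is read from these counts. DLX2 and MEIS2 were the genes detected throughout. DLX1, DLX3, IRX3, IRX4 and PKNOX2 were undetected on every mock array. In the NANOG knock-down DLX3 and PKNOX2 were detected on 3 of 3 arrays, DLX1 on 2 of 3, and IRX3 and IRX4 on 0.

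**Figure D1:**
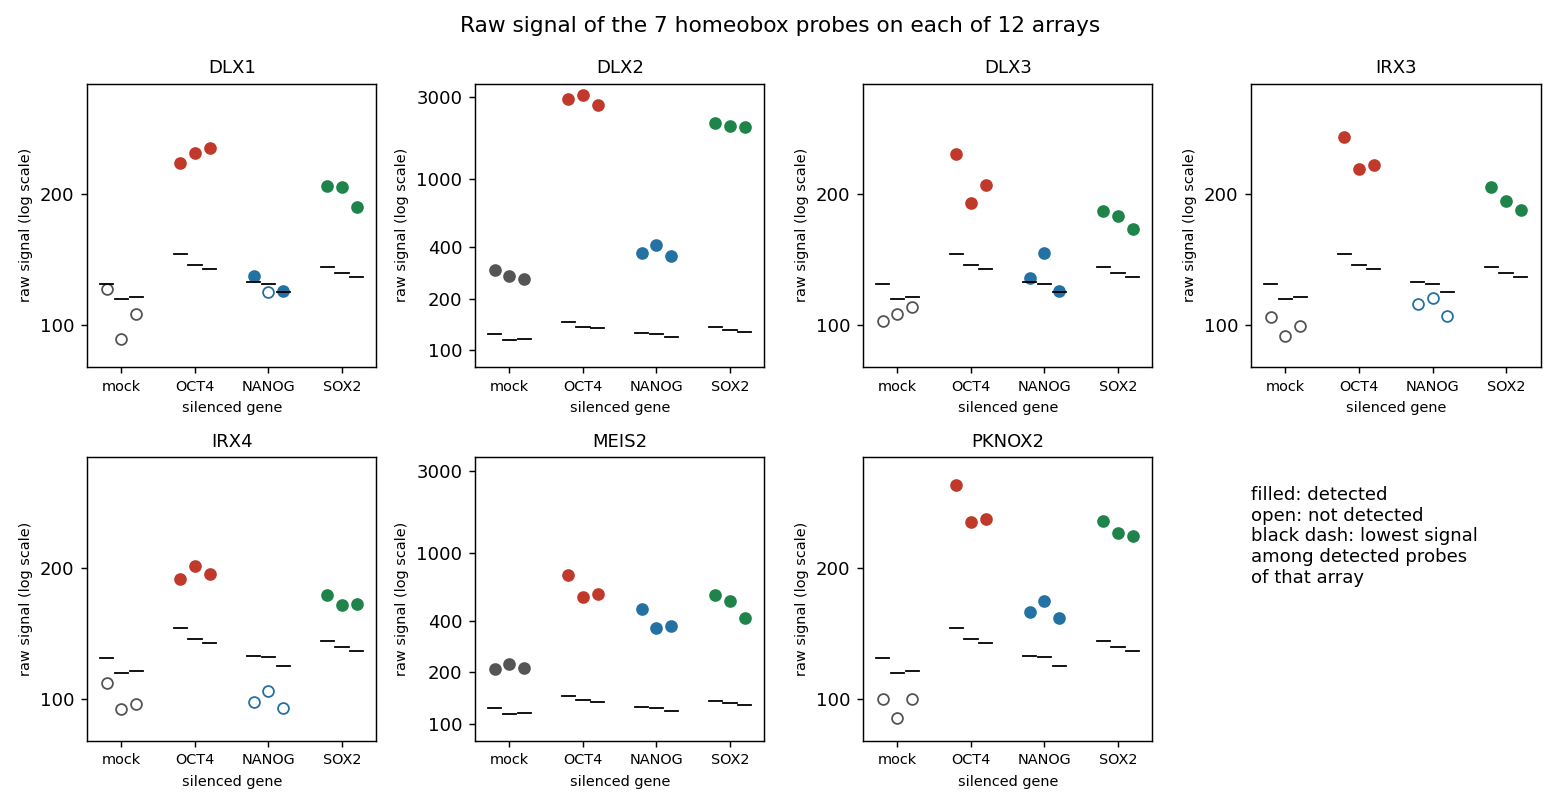
Raw signal on a log axis for each of the 7 probes on each array, by group (mock or the gene silenced), with filled points for detected and open points for undetected probes and a black dash at the lowest signal among the detected probes of that array. DLX2 lay between 2685.9 and 3084.8 after OCT4 silencing and between 259.3 and 296 in mock, and IRX3 and IRX4 were open in mock and the NANOG knock-down.

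The first comparison asked how the genes stood after silencing of OCT4. All 7 were called higher than mock, against 3.78% of all probes called higher in that comparison. Called means an adjusted p under 0.05 and a change of at least 1.5-fold. The study had listed all 7 from these same arrays as higher after OCT4 silencing, so this count and direction are no independent evidence and nothing is read from them. The sizes and the order of the changes are given as description.

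Among the DLX genes, DLX2, a forebrain and branchial arch patterning factor, gave signals of 296, 272.8 and 259.3 in mock and 2927.5, 3084.8 and 2685.9 after OCT4 silencing. The groups did not overlap, and the log2 value went from 7.97 ± 0.13 to 11.07 ± 0.15 (SD, n = 3), which is 8.60-fold (log2 difference 3.10, SE 0.10, adjusted p = 3.56e-10). DLX1, its neighbour, gave 120.9, 92.6 and 105.7 in mock, below detection, and 236, 248.5 and 255.5 after OCT4 silencing. It was at least 2.52-fold higher (adjusted p = 6.31e-06), where the bound sets the mean of the bright group against the higher of the probe's own value and the lowest detected signal on each dim array. Such bounds hold for the main settings, and the DLX1 log2 difference was as small as 0.78 over the alternatives. The mock values of DLX1 spread more than those of the other members, with an SD of 0.42 on the log2 scale. DLX3, known from epidermis, placenta and tooth, gave 102, 105.8 and 110.2 in mock and 248, 191.3 and 210.6 after OCT4 silencing, a change of at least 1.99-fold (adjusted p = 3.86e-05). Its log2 difference was as small as 0.61 over the alternatives.

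Both Iroquois genes were undetected in mock. IRX3, a neural patterning factor, gave 104.3, 94.4 and 99.2 there and 270.7, 228.8 and 233.3 after OCT4 silencing, at least 2.46-fold higher (adjusted p = 1.21e-09). IRX4, known from the ventricles of the heart, gave 108.9, 94.7 and 97.3 in mock and 188.8, 202.5 and 193.5 after OCT4 silencing, at least 1.68-fold higher (adjusted p = 4.87e-07). The mock and OCT4 knock-down arrays did not overlap for either gene. With the background left uncorrected the IRX4 difference was under 1.5-fold and was not called. For IRX3 the log2 difference was as small as 0.86 over the alternatives.

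Of the TALE partner genes, PKNOX2 gave 100, 90 and 99.6 in mock, below detection, and 311.1, 256.1 and 259.7 after OCT4 silencing. It was at least 2.99-fold higher (adjusted p = 7.37e-10), and its log2 difference was as small as 1.06 over the alternatives. MEIS2 was detected in mock, at 210, 224.5 and 211.6, and gave 742.7, 550.4 and 572.2 after OCT4 silencing. Its log2 value went from 7.45 ± 0.07 to 8.60 ± 0.15 (SD, n = 3), a 2.22-fold change (log2 difference 1.15, SE 0.11, adjusted p = 5.44e-06), and the log2 difference was 1.86 with arrays scaled to a common median. The median of the 7 fitted differences was 1.85, or 1.30 with undetected genes at their bounds. The median over all probes was -0.01. RNA came from whole cultures, so more cells of a type and more message per cell cannot be told apart.

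After SOX2 silencing all 7 genes were again called higher than mock, against 3.59% of all probes. The study had listed all 7 as higher after SOX2 silencing too, on these same arrays, so this count and direction are no independent evidence either. DLX2 gave 2110.3, 2037 and 2008.7, with a log2 value of 10.98 ± 0.09 (SD, n = 3), and was 8.04-fold above mock (adjusted p = 4.25e-10). DLX1 gave 209.4, 208.1 and 186.8, at least 2.43-fold higher, and DLX3 gave 183.3, 178.5 and 166.7, at least 1.88-fold higher. In raw signal all 3 DLX genes stood above every mock array. The SOX2 knock-down arrays were brighter, with median raw signals of 109.1 to 115.2 against 97.5 to 104.7 in mock. The share of all probes above every mock array was not counted, so nothing is read from this.
IRX3 gave 208.2, 192.6 and 184.4, at least 2.29-fold above mock, and IRX4 gave 173.2, 164.2 and 165.2, at least 1.68-fold above it. Both were detected on every SOX2 knock-down array and on no mock array. PKNOX2 gave 256.3, 241 and 237, at least 3.40-fold higher (adjusted p = 3.81e-10). MEIS2 gave 569.4, 525.7 and 413.6 and was 2.33-fold higher (adjusted p = 3.08e-06), and its arrays did not overlap those of mock. Across the 7 genes the highest adjusted p in this comparison was 6.39e-05. With the background left uncorrected, 5 of the 7 were called, and DLX3 and IRX4 were not. The bounds above hold for the main settings. Over the alternatives the log2 differences were as small as 0.75 for DLX1, 0.56 for DLX3, 0.81 for IRX3, 0.575 for IRX4 and 1.18 for PKNOX2.

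After NANOG silencing 3 of the 7 genes were called higher and 0 lower, where 1.35% of all probes were called higher and 1.16% lower. The called genes were PKNOX2, MEIS2 and DLX3. The study had listed PKNOX2 and MEIS2 as higher after NANOG silencing on these arrays, so their direction here is no independent evidence either. PKNOX2 gave 158.5, 168 and 153.3 and was at least 1.88-fold above mock (adjusted p = 1.42e-07). Its log2 difference was as small as 0.71 over the alternatives. MEIS2 gave 468, 365.7 and 374, with a log2 value of 8.40 ± 0.17 (SD, n = 3), and was 1.93-fold higher (adjusted p = 1.30e-04). With the methods' t-test after adjustment MEIS2 was not called (adjusted p = 0.0507). That test was run here alone, on floored signals scaled to a common median and not rank-invariant ones, without the manufacturer's model that the study required beside it.
DLX3 gave 128.5, 146.3 and 120, at least 1.13-fold above mock (adjusted p = 0.0283). Its call was lost without mock replicate 1 (adjusted p = 0.0986), without mock replicate 2 (adjusted p = 0.058) and without NANOG knock-down replicate 2 (adjusted p = 0.0798). It was also lost with an offset of 50, without background correction, with a signal floor of 20, by the methods' t-test and with mock and NANOG knock-down alone in the fit, and the deposited processed values put the change under 1.5-fold. DLX2 gave 367.4, 413.7 and 354.8, above each mock array, but did not pass the test (log2 difference 0.33, adjusted p = 0.0897). DLX1 gave 129.6, 119.3 and 119.6, overlapped mock and was not called (adjusted p = 0.255), though it was without mock replicate 1 (adjusted p = 0.022). No fold is given for it, since its mean lay below the lowest detected signals of the mock arrays. IRX3 gave 112, 115.5 and 104.9 and IRX4 98.4, 104.3 and 95.3, below detection in both groups, so no fold is given for either.

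**Figure D2:**
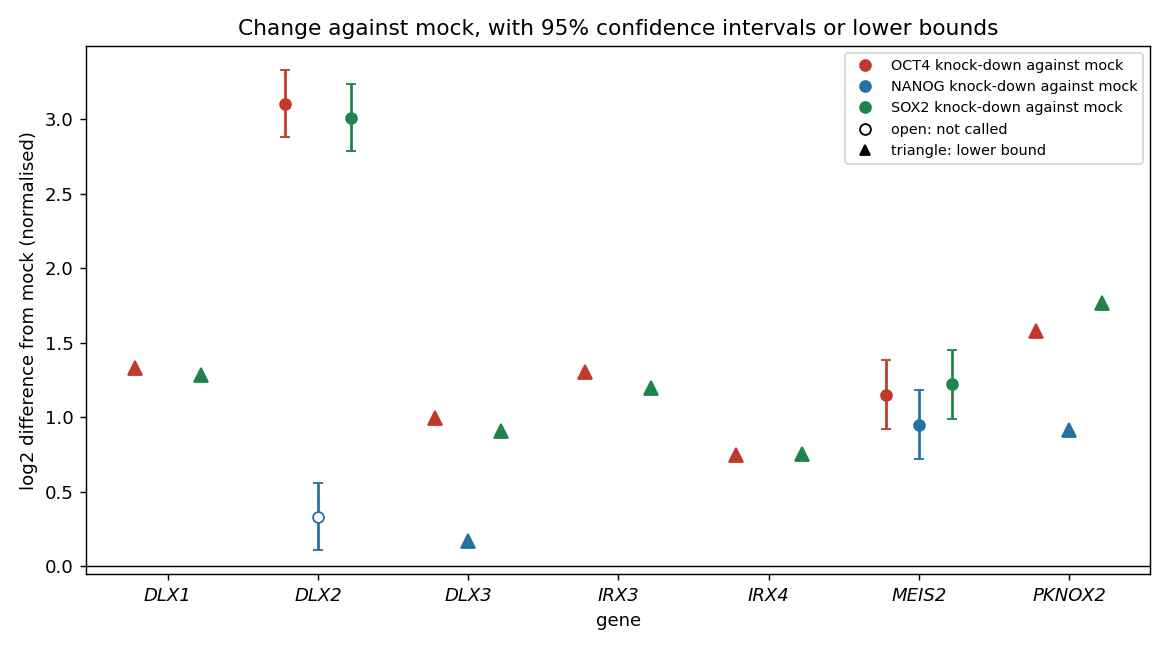
Normalised log2 difference from mock for each gene in the 3 knock-downs, with 3 arrays per group, filled where called and open where not. Points with 95% confidence intervals are genes detected in mock, and triangles are lower bounds, at the main settings, for genes undetected there. DLX1, IRX3 and IRX4 have no mark for the NANOG knock-down because no bound exists. DLX2 lies at 3.10 after OCT4 silencing, 3.01 after SOX2 silencing and 0.33 after NANOG silencing.

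The knock-downs were then set against each other directly. Against NANOG silencing 6 of the 7 genes were called higher after OCT4 silencing, where 3.21% of all probes were. After SOX2 silencing 6 of the 7 were called higher than after NANOG silencing, where 3.1% of all probes were. The members were chosen as high after OCT4 silencing and had been listed as high after SOX2 silencing too, so nothing is read from either count. DLX2 was 6.82-fold above the NANOG knock-down after OCT4 silencing (adjusted p = 1.26e-09) and 6.38-fold after SOX2 silencing (adjusted p = 1.68e-09). IRX3 was at least 2.65-fold and at least 2.46-fold above the NANOG knock-down in the same order. IRX4 was at least 1.80-fold and at least 1.81-fold above it. These bounds hold for the main settings, and over the alternatives the log2 differences were as small as 0.77 and 0.715 for IRX3. For IRX4 they were as small as 0.66 in both comparisons. DLX1 was called higher in both (adjusted p = 7.16e-05 and 9.56e-05), and no size is given since it was detected on 2 of 3 NANOG knock-down arrays.
PKNOX2 was detected in all these arrays and was higher by 1.59-fold after OCT4 silencing (adjusted p = 1.88e-04) and 1.80-fold after SOX2 silencing (adjusted p = 2.11e-05). Without NANOG knock-down replicate 1 the first of these was not called (log2 difference 0.58), nor with an offset of 50 (0.50), and without background correction neither was (0.36 and 0.47). Median scaling put the first at 1.18, from 0.665 in the main fit. DLX3 differed by 1.77-fold (adjusted p = 0.00709) and 1.66-fold (adjusted p = 0.015), and neither was called with an offset of 50, without background correction or by the methods' t-test. The second DLX3 call was lost without NANOG knock-down replicate 1 (adjusted p = 0.0715) and without replicate 3 (adjusted p = 0.0689). On the log2 scale they were 0.82 and 0.73, and with a signal floor of 20 they were 1.25 and 1.14, and median scaling put the first at 1.30. MEIS2 was the exception, and its OCT4 minus NANOG difference of 0.20 (95% interval -0.03 to 0.43, adjusted p = 0.337) and SOX2 minus NANOG difference of 0.27 (0.04 to 0.50, adjusted p = 0.154) were not called. Scaling arrays to a common median called the first of these at 0.65.

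Between OCT4 and SOX2 silencing 0 of the 7 genes were called, and 0% of all probes. limma found 0 of 47289 probes, 3378 at an unadjusted p under 0.05, and the methods' t-test found 49 at its own threshold and 1 after adjustment. Scaling arrays to a common median called 794 probes and 0 of the 7 genes, with a median of 0.36 log2 over detected probes. For DLX2 the difference was 0.10 (95% interval -0.13 to 0.32) and for IRX4 it was -0.002 (-0.24 to 0.24). Under median scaling these were 0.50 and 0.33, and IRX3 went from 0.10 to 0.48, so the intervals cover the spread between arrays and not the choice of scaling. DLX1 and DLX3 had the widest intervals, -0.33 to 0.43 and -0.30 to 0.48. PKNOX2 was the gene whose normalised values did not overlap, with a log2 difference of -0.19 (95% interval -0.38 to 0.01, adjusted p = 0.713) that did not pass. It was 0.19 under median scaling, so no direction is given for it. A p that misses the threshold does not show that the groups act alike.

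**Figure D3:**
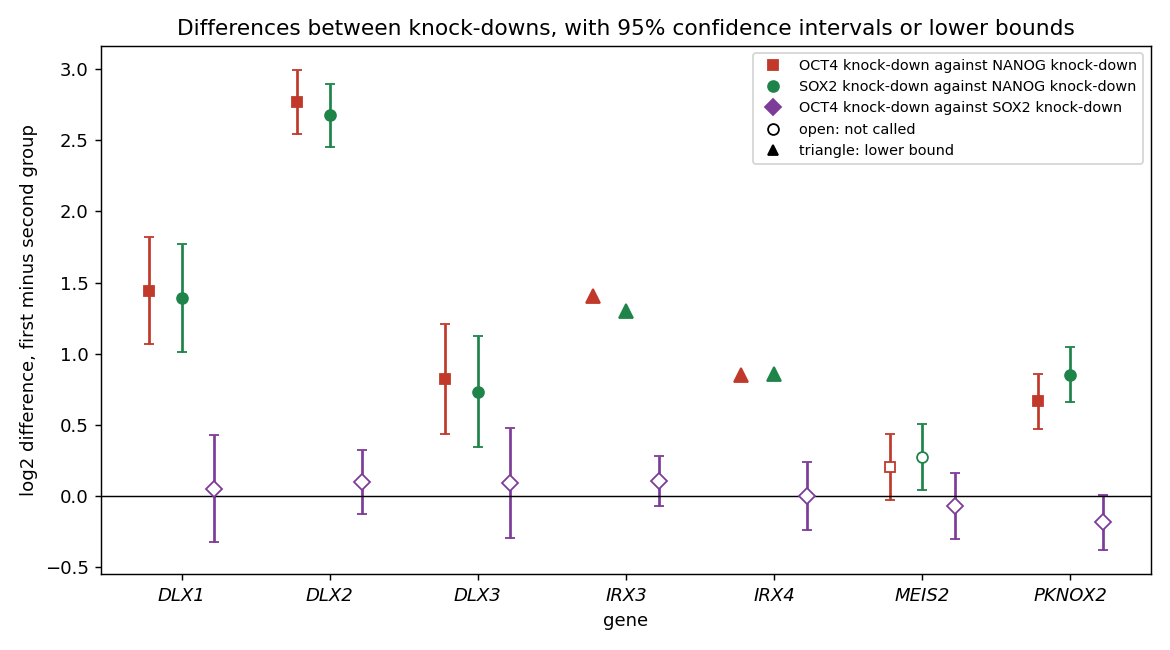
Log2 difference between pairs of knock-downs for each gene, first minus second group, with 95% confidence intervals, filled where called and open where not. Triangles mark the lower bounds, at the main settings, of IRX3 and IRX4 against the NANOG knock-down. The DLX1 points there give no size, as 1 NANOG knock-down array was below detection. The OCT4 minus SOX2 values lie between -0.19 and 0.10, or between 0.19 and 0.50 under median scaling, and are open for all 7 genes, and DLX2 lies at 2.77 and 2.67 against the NANOG knock-down.

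The levels of each gene were ordered over the groups as a description. The place of the OCT4 and SOX2 knock-downs above mock repeats how the study had listed these genes. For DLX1, DLX2, IRX3 and IRX4 the OCT4 and SOX2 knock-downs formed the upper pair, not told apart from each other, and the NANOG knock-down and mock the lower pair, without a called difference except for DLX1 when mock replicate 1 was left out. IRX3 and IRX4 were below detection throughout the lower pair, so its order is open for them. PKNOX2 had mock at the bottom, the NANOG knock-down in between, and the other knock-downs above it, with each of these steps called, though the steps above the NANOG knock-down depended on 1 array or on settings as described. DLX3 had the same order, with the steps to and from the NANOG knock-down depending on single arrays or on settings. MEIS2 had mock at the bottom and the 3 knock-downs above it, without a called difference among them other than under median scaling.

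Over the 12 arrays genes whose centred log2 profiles lay near each member were sought among 2891 probes with a gene name. Every candidate had been named through the study's list of changed genes, so the search was over changed genes alone. Signals below detection enter the profiles, on 6 of the 12 arrays for IRX3 and IRX4, 4 for DLX1 and 3 for DLX3 and PKNOX2. Among the near genes it was 6 for VTCN1, ACTC1, PIEZO2, IRS1 and POF1B. It was 3 for PDGFC, ST3GAL3 and TP53INP1, 2 for CRYBA2 and 1 for RAB32. The level of such signals is set by the background correction and offset, so the distances describe these settings. The 3 nearest genes are given for each member. IRX4 lay near ISG15, at a root mean square difference of 0.07 log2, and near RAI14 and POF1B, each at 0.11. IRX3 lay near GADD45A at 0.09, BMP4 at 0.12 and IRS1 at 0.13. DLX2 lay near VTCN1 at 0.13, CRYBA2 at 0.14 and ACTC1, cardiac actin, at 0.15. MEIS2 lay near PDGFC at 0.14, PCMTD1 at 0.14 and ST3GAL3 at 0.15, and PKNOX2 near NMNAT2 at 0.14, EFHD1 at 0.20 and TP53INP1 at 0.24. DLX1 lay near SIAH2, RAB32 and TAGLN2, each at 0.20, and DLX3 near PIEZO2 at 0.19 and CLDN5 and CITED2, each at 0.20.

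Of 18 other genes of the DLX, IRX and TALE families and their partners, 5 could be named, DLX5, IRX1, IRX2, TGIF2 and PBXIP1. The others were not analysed here. Since names came from the study's list of changed genes, these 5 were bound to differ somewhere. The copy of that list used here was cut short for genes lower after NANOG silencing and for genes changed after SOX2 silencing. Genes listed only in those parts may be unnamed. After OCT4 silencing 2 of the 5 were called higher and 2 lower, where 2.92% of all probes were called lower. After SOX2 silencing it was also 2 and 2, where 2.84% were called lower, and after NANOG silencing 4 were higher and 0 lower.

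IRX1 and IRX2 lie in the same Iroquois cluster as IRX4 on chromosome 5, and were higher than mock after NANOG silencing, where IRX4 was undetected. The IRX1 probe had no match in RefSeq as used here, so its name rests on the study's list alone. IRX1 gave log2 values of 10.23 ± 0.12 in mock, 9.43 ± 0.15 after OCT4 silencing, 11.28 ± 0.05 after NANOG silencing and 9.33 ± 0.12 after SOX2 silencing (SD, n = 3). It was 2.07-fold higher than mock after NANOG silencing (adjusted p = 1.75e-05) and fell by 0.80 and 0.90 on the log2 scale after OCT4 and SOX2 silencing (adjusted p = 4.37e-05 and 1.51e-05). With arrays scaled to a common median the OCT4 value was -0.20 and was not called. IRX2 was 2.64-fold higher after NANOG silencing (adjusted p = 3.63e-07), and its log2 differences of -0.45 and -0.54 in the other knock-downs were not called, though the SOX2 one was with a signal floor of 20 (-0.62) and by the methods' t-test (adjusted p = 0.0165). Under median scaling its OCT4 difference was 0.17, so no direction is given for it there.
DLX5, undetected in mock, was at least 1.29-fold higher after NANOG silencing (adjusted p = 4.27e-04) and at least 1.06-fold higher after OCT4 silencing (adjusted p = 8.44e-04), and was detected on 2 of 3 SOX2 knock-down arrays. It was called there too (adjusted p = 0.00639), but its mean lay below the lowest detected signals of the mock arrays, so no fold is given. All 3 calls were lost with a signal floor of 20, without background correction and by the methods' t-test after adjustment, and those in the OCT4 and SOX2 knock-downs with an offset of 50. PBXIP1, a protein that binds PBX, was detected on 2 of 3 mock arrays, so no size is given, and was called higher in each knock-down, calls that were lost without background correction. By the methods' t-test after adjustment the OCT4 and NANOG calls were lost too (adjusted p = 0.0603 and 0.174). TGIF2, a TALE repressor, fell by 0.72 after OCT4 silencing (adjusted p = 1.25e-05) and by 0.64 after SOX2 silencing (adjusted p = 3.49e-05) on the log2 scale, and its NANOG knock-down difference of -0.14 was not called. Under median scaling its OCT4 and SOX2 changes were not called, nor was the SOX2 change without background correction.

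**Figure D4:**
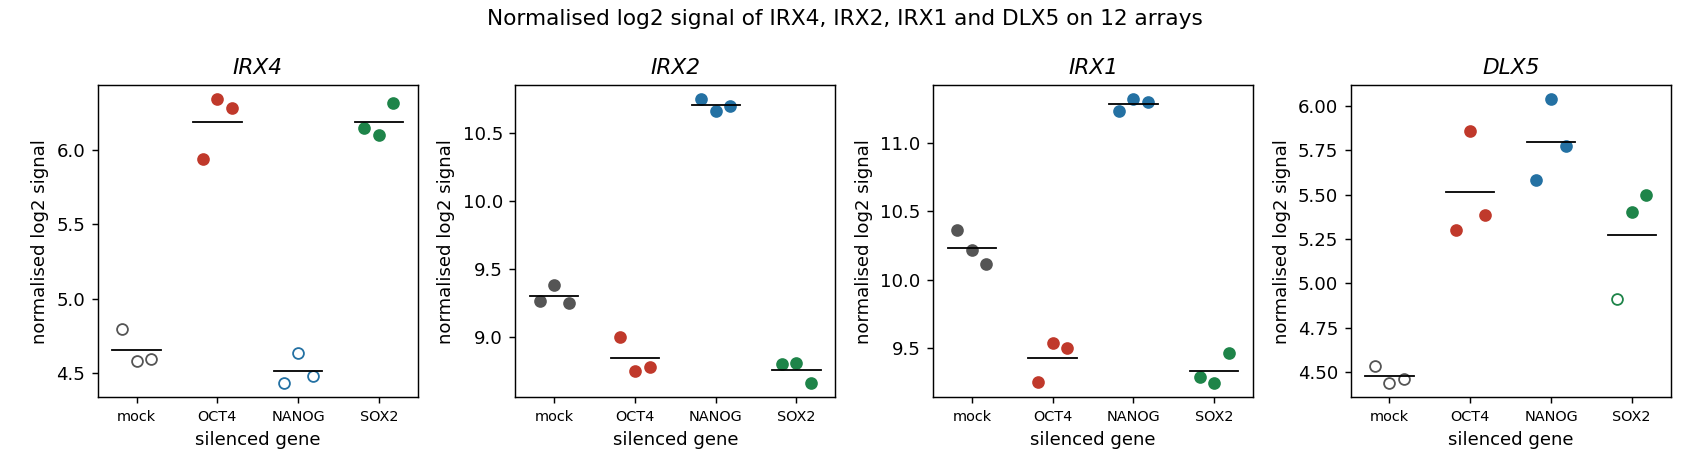
Normalised log2 signal on each array for IRX4, IRX2, IRX1 and DLX5 by group, with a bar at the mean of 3 arrays and open points where undetected. IRX4 was undetected in mock and the NANOG knock-down, where IRX1 had its highest mean, 11.28. The y axes differ between panels.

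Other lists were described by counts, each limited to genes that the study's list of changed genes names, so the counts are no independent evidence. The missing parts of the copy used here limit them too. Of 15 genes linked to BMP signalling and the neural border, 8 were named, 6 called higher and 1 lower after OCT4 silencing, 3 and 2 after NANOG silencing, and 4 and 1 after SOX2 silencing. Over the alternatives 4 to 7 were higher after OCT4 and after SOX2 silencing, and 0 to 2 lower after NANOG silencing. The median log2 difference, with probes undetected in mock or the knock-down at their bounds, was 0.92, 0.06 and 0.86 in that order, where MSX1 had no bound after NANOG silencing and was left out. Among those higher after OCT4 silencing were HAND1 at 3.21, the ligand BMP4 at 2.15 (1.34 without background correction), MSX1, undetected in mock and at least 2.98-fold higher, and BMP7 at 1.08, which was 1.76 under median scaling and was not called without background correction. The MSX1 bound holds for the main settings, and its log2 difference was as small as 0.91 over the alternatives. Of 8 retinoic acid genes, 5 were named, by 6 probes, with 3 probes higher and 2 lower after OCT4 silencing, 5 and 0 after NANOG silencing and 3 and 2 after SOX2 silencing. The SOX2 calls of RARB and of the second CYP26A1 probe were lost without background correction and by the methods' t-test after adjustment (adjusted p = 0.0666 and 0.0976), which leaves 2 and 1.
The binding proteins CRABP2 and CRABP1 were higher by 5.05 and 2.01 after OCT4 silencing on the log2 scale. RARB, a receptor undetected in mock, was at least 1.33-fold higher after OCT4 silencing, a call lost without background correction and by the methods' t-test. The CYP26A1 probes, which read the enzyme that degrades retinoic acid, fell by 1.38 on the log2 scale (0.74 under median scaling) and were at least 1.79-fold lower after OCT4 silencing, and were higher by 1.22 (adjusted p = 6.07e-07) and 0.65 (adjusted p = 0.0484) after NANOG silencing. For the second probe the OCT4 call was lost without background correction (log2 difference -0.43) and by the methods' t-test after adjustment. Its NANOG call was lost in 16 alternatives, among them those without mock replicate 2 (adjusted p = 0.165) and without NANOG knock-down replicate 3 (adjusted p = 0.165). DHRS3 was 1.25 higher on the log2 scale after NANOG silencing (0.70 without background correction) and not called in the other comparisons with mock, except after OCT4 silencing under median scaling (0.84). Of 39 HOX genes and 9 genes linked to DLX-dependent interneurons 0 were named, and they were not analysed here.

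Cell type markers were counted in the same way. They too could be named only through the study's list of changed genes, so the counts are no independent evidence. Of all probes 2.92%, 2.84% and 1.16% were called lower after OCT4, SOX2 and NANOG silencing, and 3.78%, 3.59% and 1.35% higher. The study gives T and MYOD1, the mesoderm markers left unnamed here, as without significant expression in each knock-down. Of 10 embryonal carcinoma markers 8 were named, by 9 probes, of which 9 were called lower after OCT4 silencing, 8 after SOX2 silencing and 6 after NANOG silencing, with medians of -2.87, -3.00 and -0.94 on the log2 scale. The list holds POU5F1 and NANOG, so 1 call in the OCT4 count and 1 in the NANOG count are of the silenced messages themselves. Over the alternatives 5 to 7 were lower after NANOG silencing. Mock cells carried them, with GDF3 at 2904 ± 115 and UTF1 at 3012 ± 103 raw signal (SD, n = 3). Of 7 mesoderm and smooth muscle markers 5 were named, all called higher after OCT4 and after SOX2 silencing and 2 after NANOG silencing, of which the TAGLN call was lost without background correction (0.45) and by the methods' t-test (adjusted p = 0.227). With probes undetected in mock at their bounds the medians were 3.21 after OCT4 and 2.97 after SOX2 silencing, and none is given after NANOG silencing since 2 of the 5 were undetected in both groups. TAGLN, a smooth muscle actin-binding protein, went from 134 ± 5.3 to 3515 ± 209 raw signal after OCT4 silencing. Of 5 neural crest markers 2 were named, 1 higher and 1 lower after OCT4 and after SOX2 silencing, and 1 higher and 0 lower after NANOG silencing. The lower one after OCT4 silencing, TFAP2A, was not called without background correction. Of 6 trophoblast, 5 neural and 6 endoderm markers 0 were named, and they were not analysed here. The part of these changes in the levels of the 7 genes was not tested.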

How the data were processed

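The authors hybridised RNA from 4 groups of NCCIT cells to Illumina BeadChips, with 3 arrays per group. Per the file headers, each array file holds a raw signal intensity per probe, not background-subtracted, and a detection score, both made by the authors in BeadStudio 1.0. A deposited table of the authors' mean background-subtracted, rank-invariant intensity (medians 167.4, 146.3, 152.4 and 166.8 in mock, OCT4, NANOG and SOX2 knock-downs) served as an alternative. Its values are linear intensities, and its scaling constants are not given in the sources used here. Here, limma 3.58.1 in R 4.3.3 applied normexp correction with the background inferred from the scores (offset 16), quantile normalisation and log2. A fit over 12 arrays gave 6 contrasts, with Benjamini-Hochberg adjustment over 47289 probes. Of 2985 probes named through the study's list, 2481 had an accession in the RefSeq table (GRCh38.p14). That list was read from a copy with parts cut short. The fit was tested on simulated data. The methods' t-test was run on floored, median-scaled signals, without rank-invariant scaling and without the manufacturer's model the study used beside it. The members and lists were chosen with earlier results of these data known. Genes named are the members, the listed families and markers, and those with near profiles. The number of arrays limits the precision. Alternatives changed the offset, background, scaling, floor, filter, test, samples, replicate block, fold and detection thresholds.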

Additional observations from a re-analysis of the deposited data

Results flagged for a closer look

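Among the genes of the lists and families read here, the changes against mock of 3, each detected on every array of the groups set side by side, were called in opposite directions in different knock-downs. For IRX1 the OCT4 minus NANOG knock-down difference was -1.85 on the log2 scale and the SOX2 minus NANOG one was -1.95, and its OCT4 call against mock was lost under median scaling. CYP26A1, read by the brighter of its probes, gave -2.60 and -2.67. GATA3, a zinc finger transcription factor, gave 1.27 for OCT4 minus NANOG knock-down (0.73 without background correction), and its calls against mock (0.63 and -0.64) were lost with an offset of 50 and without background correction, the first also without mock replicate 1 (0.58) and the second under median scaling. Median scaling put the first at 1.36. The differences between knock-downs follow from the opposite calls that picked the genes, so they give sizes and no further evidence. Genes outside these lists were not searched. IRX2 differed by -1.85 and -1.94 in the same comparisons as IRX1, without opposite calls in the main fit. Its fall after SOX2 silencing was called with a signal floor of 20 (-0.62) and by the methods' t-test. TFAP2A and the dimmer CYP26A1 probe also had opposite calls, and no size is given as they were undetected on some of the arrays.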

How the results depend on the processing

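Tested differences of the 7 genes kept their direction and side of the threshold in 886 of 924 cases over all contrasts and alternatives; 27 lost the call, 2 gained it, and 9 changed sign, all of them not called in OCT4 against SOX2. Signal over background limits DLX1, DLX3, IRX3, IRX4 and PKNOX2, and the files used here name no slide, so a slide block was not run. At a detection score of 0.95, 5 genes in place of 4 were detected on all NANOG knock-down arrays. The authors' processed values, floored at 20, put DLX2 3.22 and MEIS2 1.35 above mock on the log2 scale after OCT4 silencing. They moved 6 called differences by over 1.5 times, those of DLX3 to 0.40 in NANOG against mock (from 0.735), 1.24 in OCT4 against NANOG (from 0.82) and 1.16 in SOX2 against NANOG (from 0.73), and those of DLX5, undetected in mock, to 0.34, 0.62 and 0.05 in OCT4, NANOG and SOX2 against mock. The cause of each shift below was not tested, other than that an offset shrinks differences of dim probes.

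An offset of 50 called 2071 probes in OCT4 against mock, 611 in NANOG against mock, 1776 in OCT4 against NANOG and 1789 in SOX2 against NANOG, where the main counts were 3166, 1189, 2685 and 2696. Without background correction the counts were 1463 (OCT4 against mock), 369 (NANOG against mock), 1485 (SOX2 against mock, main 3038), 1226 (OCT4 against NANOG), 1279 (SOX2 against NANOG) and 14 (OCT4 against SOX2, main 0). Median scaling called 6535 in OCT4 against mock, 4343 in OCT4 against NANOG and 794 in OCT4 against SOX2. Under it 94.6% of calls in OCT4 against mock were higher, against 56.4% before, and the median over detected probes was 0.57 log2. The higher share went to 82.0% from 53.7% in NANOG against mock, to 81.0% from 55.8% in SOX2 against mock and to 90.7% from 56.5% in OCT4 against NANOG. Median scaling also changed the sign of differences that were not called, to 0.33 for IRX4, 0.335 for MEIS2, 0.19 for PKNOX2, 0.22 for PBXIP1 and 0.32 for TGIF2 in OCT4 against SOX2, 0.17 for IRX2 in OCT4 against mock, 0.046 for TGIF2 in NANOG against mock, 0.009 for BMP7 there, 0.305 for DHRS3 in SOX2 against mock, and 0.43 for PBXIP1 and 0.053 for DLX5 in OCT4 against NANOG. The last PBXIP1 value was 0.022 with a signal floor of 20 and in the methods' t-test on it, where DHRS3 in SOX2 against mock was 0.123, and IRX4 in OCT4 against SOX2 was 0.001 without background correction. Without a fold threshold 6839, 2909 and 6192 probes were called in OCT4, NANOG and SOX2 against mock, 5861 in OCT4 against NANOG and 5819 in SOX2 against NANOG.

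The methods' t-test after adjustment called 369 probes and 1 member in NANOG against mock, and in OCT4 against SOX2 it called 49 at its own threshold and 1 after adjustment. Fitting the compared groups alone called 2 in OCT4 against SOX2, and leaving out single arrays called 0 to 4 there. Leaving out single arrays also put the OCT4 minus SOX2 differences between -0.041 and 0.19 for DLX1, -0.003 and 0.21 for DLX3, -0.079 and 0.12 for IRX4 and -0.158 and 0.001 for MEIS2, the PBXIP1 difference of OCT4 against NANOG between -0.13 and 0.004, those of BMP4 and RARB in NANOG against mock between -0.010 and 0.183 and between -0.028 and 0.117, and that of DHRS3 in SOX2 against mock between -0.106 and 0.056. The replicate block, by the number in the file names, moved no count of calls by over 1.5 times (3160 in OCT4 against mock), and 4 of 18 same-number pairs correlated over 0.1 in their deviations, so the numbers were not taken as pairing.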
